A study of Mus musculus with 11 samples.

Results

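The 37 genes described here encode potassium channels and their auxiliary subunits that are typical of neurons. They were taken from the count tables by gene name, and all 37 were found among their 55401 genes. They fall into 11 subfamilies: 4 Kv1 pore subunits, 2 Kv beta subunits, 4 Kv2 and modifier subunits, 2 Kv3, 3 Kv4, 3 KChIP, 2 Kv7 and 3 Kv11 genes, 7 calcium- and sodium-activated channel genes, 6 tandem-pore leak channel genes and 1 inward rectifier. All 37 passed the filter on low counts.

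The RNA was taken from mouse trigeminal ganglia, which hold the neurons of touch, pain and temperature for the head. Neurons that had taken up the retrograde tracer DiI from their target tissue were collected by fluorescence-activated sorting, and their poly(A) RNA was sequenced. In all, 3 libraries came from females and 3 from males bearing MOC1, a mouse oral squamous carcinoma line, and 3 came from females and 2 from males that were sham controls, which makes 11. Sham mice had received DiI as well. Strain, age and the time after tumour placement are not given in the sources used here, nor whether a library is 1 mouse or a pool, so p-values measure only the spread between these libraries.

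Potassium channels let potassium ions leave the cell and so set the resting potential, end the action potential and limit how often a neuron fires. Kv1 channels, which carry beta subunits, sit beside the nodes of Ranvier and restrain firing near threshold. Kv4 channels with their KChIP partners carry the fast transient A-type current. Kv7 and Kv11 channels give slow currents that hold the membrane down between spikes, BK channels open with calcium and voltage, and tandem-pore channels carry background leak. Loss of potassium current in sensory neurons is a known feature of many pain models.

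Gene counts per library ran from 10757426 to 16703797. The labelled cell type was checked against marker lists, as summed CPM, the count scaled to a fixed total of gene counts. The 20 pan-neuronal genes summed to 10990 to 13700 CPM in sham and to 13900 to 15870 in MOC1 libraries, and 9 of the 20 rose in MOC1. The 16 satellite glia genes summed to 11760 to 13480 CPM in sham and to 4124 to 7383 in MOC1, and 14 of the 16 fell. Both lists separated the groups without overlap, so in every MOC1 library a larger share of reads came from the listed neuronal genes and a smaller share from the listed glial genes. In bulk RNA such as this, fewer cells of a type and less RNA per cell cannot be told apart. Of the other lists, 4 of 12 Schwann cell genes, 2 of 11 endothelial and mural genes and 1 of 7 fibroblast genes fell, with sums of 1109 to 1402, 235 to 1436 and 93.3 to 183 CPM in sham and of 839 to 989, 178 to 310 and 64.5 to 73.4 CPM in MOC1. None of the 9 macrophage genes was called, with sums of 9.22 to 25.9 and 5.67 to 19.9 CPM. Of 8 squamous epithelium genes, 4 passed the filter and none of these was called, Krt5, Krt6a and Krt17 were at 0 in all 11 libraries, and the sums of 398 to 452 and 390 to 504 CPM were nearly all Cdh1. An earlier analysis of these data described MOC1 female 2, MOC1 female 3, MOC1 male 2 and sham female 1 as standing apart, and sham female 1 holds the highest endothelial and mural sum given above. Because of the neuronal and glial difference, the MOC1 against sham values of the genes named with a test are given as CPM after TMM scaling (a scaling that assumes most genes do not change) and again with libraries scaled to the 20 pan-neuronal genes. The fits within each sex and the interaction were made on the TMM scale alone.

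The levels of the members were compared per kilobase (kb) of exon length. In sham libraries Kcnab2, the beta subunit that helps Kv1 channels reach the axon, was the highest at 124 ± 4.82 CPM per kb (SD, n = 5). Kcnip4, a calcium-binding partner of Kv4 channels, followed at 77.2 ± 11.5, and Kcna2, a Kv1 pore subunit of myelinated axons, at 43.1 ± 4.29. The sham ranges of these 3 did not overlap between Kcnab2 and Kcnip4, nor between Kcnip4 and Kcna2. From Kcna2 down to Kcnj9 at 1.11 ± 0.381, each gene overlapped its neighbour in the order, so the order of neighbours is not resolved by these libraries. Kcna6 (42.5 ± 4.29) and Kcnd1 (40.2 ± 5.67), pore subunits of Kv1 and Kv4 channels, stood beside Kcna2.

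At or above 10 CPM per kb in sham were 17 members. Kcnt1, a sodium-activated channel, led the calcium- and sodium-activated genes at 24.9 ± 2.15 CPM per kb. Kcnc4, a Kv3 pore subunit, stood at 21.6 ± 1.58 and Kcnb2, a Kv2 pore subunit, at 20.4 ± 2.19. In the Kv11 family Kcnh6 stood at 14.7 ± 1.87, Kcnh7 at 11.8 ± 0.572 and Kcnh2 at 8.87 ± 1.62. Among leak channels Kcnk1 (10.2 ± 2.33) and Kcnk2 (10.02 ± 1.29) were highest, and Kcnk18, the TRESK channel linked to migraine and typical of sensory ganglia, stood at 7.004 ± 1.68. The Kv7 pore subunits of the M-current were low per kb, Kcnq5 at 3.22 ± 0.459 and Kcnq3 at 3.14 ± 0.577. Kcnn3 and Kcnd2 were lowest, at 0.338 ± 0.178 and 0.154 ± 0.119, and each had at least 1 library with no count, MOC1 female 3 for both and also sham female 2 for Kcnd2. Summed over the 37 members, the level was 636 ± 19.3 CPM per kb in sham (range 618 to 667) and 710 ± 15.8 in MOC1 (678 to 721), with no overlap, given as a description beside the pan-neuronal sums above. This sum was taken on the TMM scale alone and not with pan-neuronal scaling. Kcnab2 alone made up 124 of it in sham and 156 in MOC1, and 10 of the 37 members had log2 fold changes below 0.

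**Figure D1:**
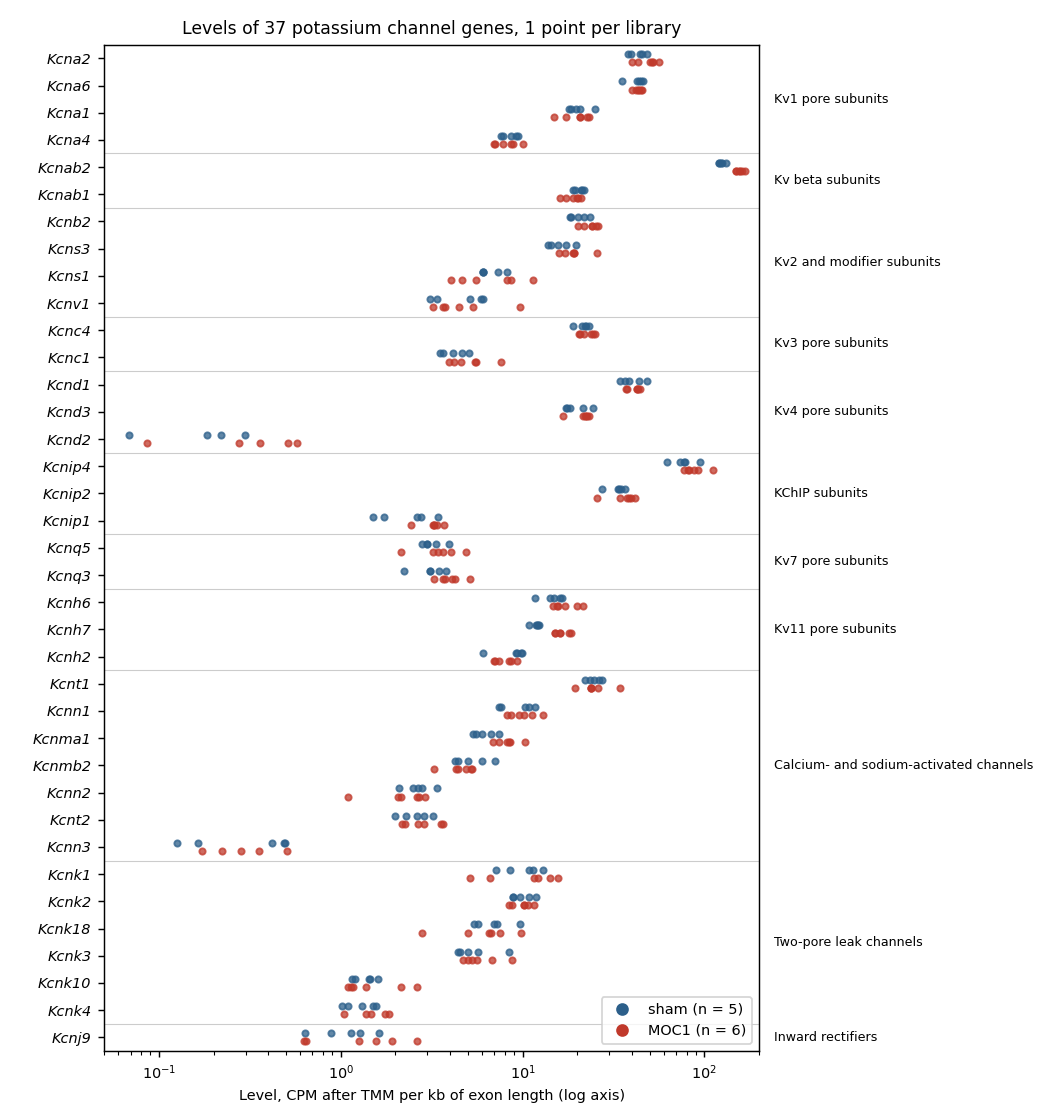
Level of each member in each library, as CPM after TMM per kb of exon length on a log axis, with 5 sham (blue) and 6 MOC1 (red) libraries and genes grouped by subfamily. Kcnab2 stands at the top in every library with its groups apart, and most other genes have overlapping groups. Libraries at 0 are not drawn.

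In MOC1 against sham, 3 members rose and none fell, by edgeR's quasi-likelihood test with sex as a term and Benjamini-Hochberg adjustment over 16817 genes. They were Kcnab2, Kcnh7 and Kcnma1, or 3 of 37, where 2.34% of all genes were called higher and 4.28% lower. Before adjustment, 6 members were above 0 and 0 below 0 at a p under 0.05, where 18.5% of all genes had such a p in either direction, and DESeq2 called 3 members higher and 0 lower. The log2 fold changes were above 0 for 27 members and below 0 for 10, with a median of 0.10, beside a median of -0.03 over all genes. With pan-neuronal scaling none of the 37 was higher (0.161% of all genes) and 1, Kcnab1, was lower (11.5% of all genes). On that scale 8 members were above 0 and 29 below, with a median of -0.18 beside -0.30 over all genes, and 0 were above and 9 below 0 at an unadjusted p under 0.05, beside 26.4% of all genes in either direction. So the sign of many members turned with the scale. The 3 calls ended, while Kcnab2, Kcnh7 and Kcnma1 stayed above 0 (0.06, 0.20 and 0.14). Leaving out the 4 libraries that stand apart keeps only 1 MOC1 female library, so only effect sizes are given for that fit. On the TMM scale the log2 fold changes were then 0.35 for Kcnab2, 0.39 for Kcnh7, 0.48 for Kcnma1 and 0.28 for Kcnb2.

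Kcnab2 (ENSMUSG00000028931.12) lies on the minus strand at chr4:152390742-152477910 of GRCm38. It was measured at 667.5, 735.6 and 673.8 CPM in sham females and 697.1 and 687.3 in sham males. In MOC1 it was 879.6, 894.3 and 859.8 in females and 831.7, 831.8 and 936.8 in males. All 6 MOC1 libraries lay above all 5 sham libraries. The means were 692 ± 26.9 CPM (SD, n = 5) and 872 ± 40.3 (SD, n = 6), a log2 fold change of 0.33 (SE 0.06, edgeR adjusted p = 0.00141). With pan-neuronal scaling the log2 fold change was 0.06 (SE 0.08, edgeR adjusted p = 0.673), and the groups overlapped.

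Kcnh7 (ENSMUSG00000059742.10), at chr2:62693414-63184287 on the minus strand, encodes a Kv11 pore subunit of the ether-a-go-go-related type. It stood at 187.6, 165.4, 180.2, 183.5 and 184.3 CPM in the sham libraries, and at 228.8, 243.4 and 274.4 in MOC1 females and 229.6, 280.8 and 245.3 in MOC1 males. Again every MOC1 library was above every sham library. The log2 fold change was 0.47 (SE 0.08, edgeR adjusted p = 0.00066), or 1.39-fold. With pan-neuronal scaling it was 0.20 (SE 0.09, edgeR adjusted p = 0.196), and the groups overlapped.

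Kcnma1 (ENSMUSG00000063142.15), at chr14:23289431-24014491 on the minus strand, encodes the pore of the BK channel, which calcium and voltage open together. Its sham values were 126.3, 114.4, 90.77, 101.8 and 93.83 CPM, and its MOC1 values were 126.0, 143.7 and 139.5 in females and 174.9, 145.7 and 116.7 in males. The groups overlapped, with 4 of 6 MOC1 libraries above the highest sham library. The log2 fold change was 0.42 (SE 0.11, edgeR adjusted p = 0.0266). Leaving out MOC1 female 2, MOC1 male 1, sham female 3, sham male 1 or sham male 3 ended that call, with edgeR adjusted p of 0.0642, 0.0573, 0.0692, 0.068 and 0.0982. With pan-neuronal scaling the log2 fold change was 0.14 (SE 0.15, edgeR adjusted p = 0.584).

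Kcnab2 and Kcnh7 were the 2 members whose groups did not overlap with MOC1 higher, where 2.15% of all genes did so, and 0 members did so with MOC1 lower, where 4.18% of all genes did. With pan-neuronal scaling 0 members separated with MOC1 higher (0.101% of all genes) and 1 with MOC1 lower (9.86% of all genes). That 1 was Kcnab1, the other beta subunit on the list, which speeds the inactivation of Kv1 channels. On the TMM scale Kcnab1 was 180.6, 162.5, 182.7, 167.8 and 186.9 CPM in sham and 137.3 to 180.5, median 167, in MOC1. Its log2 fold change was -0.11 (SE 0.08, edgeR adjusted p = 0.551) there and -0.38 (SE 0.10, edgeR adjusted p = 0.0178) with pan-neuronal scaling.

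**Figure D2:**
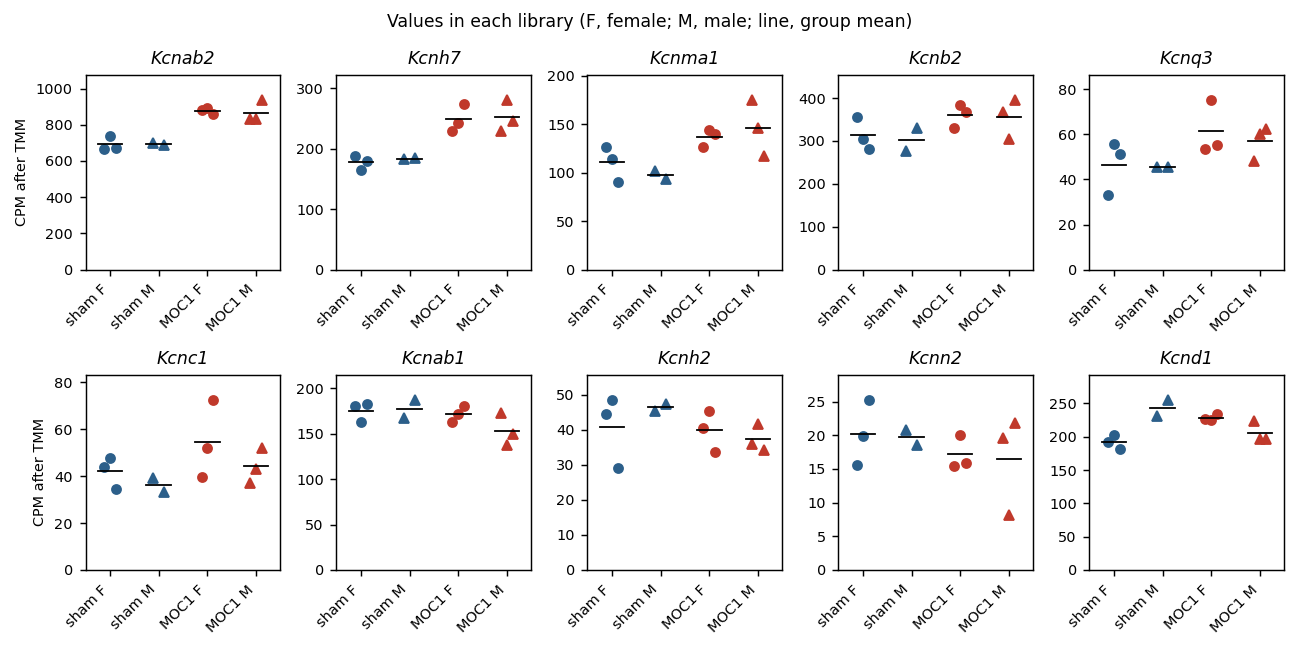
CPM after TMM in each library for 10 members, in sham females, sham males, MOC1 females and MOC1 males, with circles for females, triangles for males and a line at each group mean. Kcnab2 and Kcnh7 separate MOC1 from sham in both sexes, Kcnma1 overlaps by its lowest MOC1 values, and Kcnd1 is ordered differently in females and males.

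A share within a subfamily does not depend on how libraries are scaled. Kcnab2 held 79.7 ± 1.49% (SD, n = 5) of the counts of the 2 beta subunits in sham (78.6 to 81.9) and 84.3 ± 1.504% (SD, n = 6) in MOC1 (82.7 to 86.2), with no overlap. Kcnh7 held 65.6 ± 3.61% of the counts of the 3 Kv11 genes in sham and 71.3 ± 3.17% in MOC1, and 1 sham library, female 3 at 71.8%, lay inside the MOC1 range of 68.3 to 76.1%. Kcnh2, the ERG channel also known from the heart, held 15.6 ± 2.451% in sham and 11.0 ± 1.49% in MOC1, with overlap through the same sham library at 11.6%. Kcnma1 held 23.8 ± 3.95% of the counts of the 7 calcium- and sodium-activated genes in sham and 29.5 ± 3.39% in MOC1, with overlap. These shares were looked at after the calls were known and carry no test. Whether glial RNA has a part in them was not tested.

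**Figure D3:**
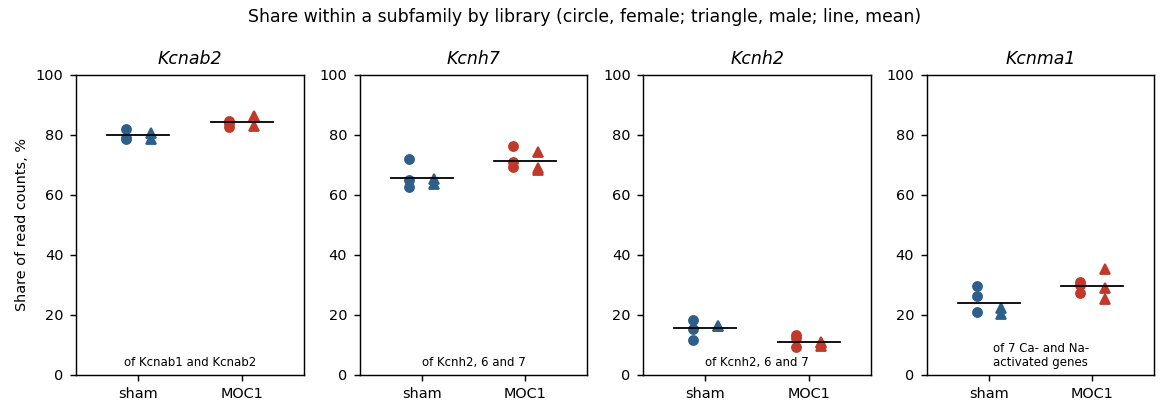
Share of read counts, in percent, that each of 4 genes held within its subfamily in each sham (blue) and MOC1 (red) library, with circles for females, triangles for males and a line at the mean. For Kcnab2 every MOC1 library is above every sham library, and for Kcnh7, Kcnh2 and Kcnma1 the groups overlap.

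Of the members with the next smallest p upward, none passed the adjusted test. Kcnq3, a pore subunit of the M-current, was 32.9, 55.5, 51.2, 45.7 and 45.6 CPM in sham and 48.2 to 75.2, median 57.7, in MOC1. Its log2 fold change was 0.36 (SE 0.14, edgeR adjusted p = 0.168), with overlapping groups, and 0.10 (SE 0.14) with pan-neuronal scaling. Kcnb2 was 276 to 355 CPM in sham and 304 to 396 in MOC1, with a log2 fold change of 0.21 (SE 0.09, edgeR adjusted p = 0.171), and it turned to -0.07 with pan-neuronal scaling. Kcnc1, a fast Kv3 pore subunit, was 33.3 to 47.8 and 37.2 to 72.4 CPM, with a log2 fold change of 0.34 (SE 0.16, edgeR adjusted p = 0.252), and 0.06 (SE 0.17) with pan-neuronal scaling. Downward, Kcnh2 had a log2 fold change of -0.16 (SE 0.15, edgeR adjusted p = 0.668), with 29.2 to 48.4 CPM in sham and 33.7 to 45.3 in MOC1. With pan-neuronal scaling it was -0.44 (SE 0.16, unadjusted p = 0.0145 and adjusted p = 0.0893 by edgeR). Kcnn2, a small-conductance calcium-activated channel, had -0.24 (SE 0.23, edgeR adjusted p = 0.677), with 15.6 to 25.2 and 8.21 to 21.8 CPM. With pan-neuronal scaling it was -0.50 (SE 0.24, unadjusted p = 0.0468 and adjusted p = 0.182 by edgeR), and the groups of Kcnh2 and of Kcnn2 overlapped on both scales.

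By subfamily, the median log2 fold change on the TMM scale was -0.00064 for Kv1 pore subunits, where Kcna2 (0.19, SE 0.09) and Kcna4 (-0.09, SE 0.12) marked the range. The 4 Kv2 and modifier genes were all above 0 on this scale (0.10 to 0.26) and all below 0 with pan-neuronal scaling, and none was called on either. The Kv4 genes gave 0.03 for Kcnd1 and 0.09 for Kcnd3, and for Kcnd2, with 0 to 2.96 CPM in any library, 0.97 (SE 1.24). Their KChIP partners gave 0.13 for Kcnip2, 0.19 for Kcnip4 and 0.43 (SE 0.23) for Kcnip1. In the Kv7 and Kv11 families Kcnq5 gave 0.14 (SE 0.19) and Kcnh6 0.22 (SE 0.12). The 6 leak channels lay between -0.10 for Kcnk18 (SE 0.25) and 0.20 for Kcnk10 (SE 0.26), with a median of 0.02 and all 6 below 0 with pan-neuronal scaling. Kcnt1 did not move on the TMM scale by more than its error (0.0013, SE 0.10). None of these was called.

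**Figure D4:**
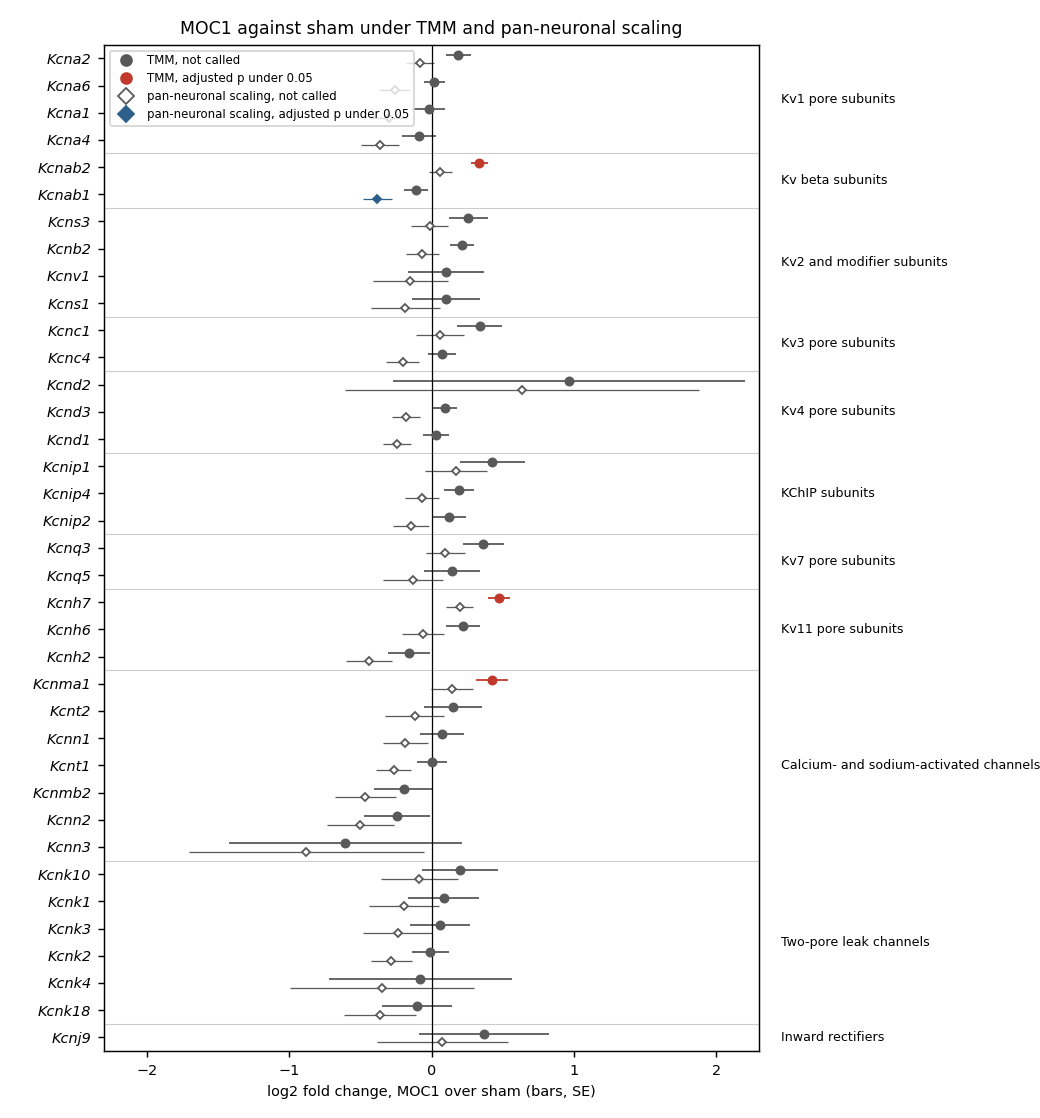
The log2 fold change of MOC1 over sham for each member, with bars of 1 SE, on the TMM scale (circles) and with pan-neuronal scaling (diamonds), by subfamily. Circles in red are Kcnab2, Kcnh7 and Kcnma1, called higher, the blue diamond is Kcnab1, called lower, and nearly every diamond lies left of its circle.

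Within females Kcnh7 (log2 fold change 0.49, SE 0.11, edgeR adjusted p = 0.0137) and Kcnab2 (0.34, SE 0.08, edgeR adjusted p = 0.0216) rose, where 1.33% of all genes were called higher, and no member was called lower, where 3.15% were. Each of these 2 calls ended in some fits that left out 1 library: Kcnab2 without MOC1 female 2 (0.0833), sham female 1 (0.0643) or sham female 3 (0.0545), and Kcnh7 without MOC1 female 3 (0.054) or sham female 2 (0.0637), all edgeR adjusted p. Within males, with 3 libraries against 2, edgeR called 0 members higher (0.166% of all genes) and 0 lower (1.09%), and 3 members were above and 1 below 0 at an unadjusted p under 0.05, beside 7.95% of all genes in either direction. Kcnh7 had a log2 fold change of 0.45 in males (edgeR adjusted p = 0.0888), Kcnab2 0.32 (0.124) and Kcnma1 0.58 (0.144). DESeq2 called Kcnab2 and Kcnh7 in males, with adjusted p of 0.003096 and 0.0234. The share of all genes that DESeq2 called in males is not given here. In the comparison over both sexes DESeq2 called more genes than edgeR, 608 higher and 884 lower against 394 and 719.

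The difference between the sexes in the tumour effect was tested as an interaction, and 0 members and 0% of all genes were called, by edgeR and, for the members, by DESeq2 as well. At an unadjusted p under 0.05, where 4.21% of all genes lay, there was 1 member, Kcnd1, the X-linked Kv4 pore subunit. It was 182 to 203 CPM in sham females and 225 to 234 in MOC1 females, and 231 to 255 in sham males and 196 to 224 in MOC1 males. On this TMM scale the groups did not overlap in either sex and lay in opposite order. How many of all genes did so was not counted. With pan-neuronal scaling the females overlapped, at 187 to 242 in sham and 192 to 211 in MOC1, while the males stayed apart, at 242.5 to 276 in sham and 181 to 222 in MOC1, so the opposite order was not seen on that scale. Between the sexes themselves 0 members were called, where 0.0416% of all genes were, and 2 had an unadjusted p under 0.05 by edgeR (4.29% of all genes) and by DESeq2: Kcna4, an A-type Kv1 pore subunit, at a log2 difference of 0.28 (SE 0.12) and Kcnd3 at 0.25 (SE 0.09), both higher in males, with edgeR adjusted p of 1.

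The other potassium channel genes of the mouse were taken from a list of 65 names, of which 64 were found and 49 passed the filter. Of these, 1 rose and 2 fell, where 2.34% and 4.28% of all genes did, and 16 had an unadjusted p under 0.05, beside 18.5% of all genes. Dpp6, a partner of Kv4 channels, was 432 to 488 CPM in sham and 501 to 560 in MOC1, with a log2 fold change of 0.22 (SE 0.06, edgeR adjusted p = 0.0428). With pan-neuronal scaling it was -0.05 (edgeR adjusted p = 0.748). Kcnj10, the inward rectifier of satellite glia, fell from 293 ± 30.1 CPM (SD, n = 5) to 117 ± 42.6 (SD, n = 6), a log2 fold change of -1.35 (SE 0.19, edgeR adjusted p = 0.000133), and -1.62 (SE 0.20) with pan-neuronal scaling. It is itself 1 of the 16 satellite glia genes whose sum is given above. Kcnk5, an acid-sensitive leak channel, was 7.73 to 13.7 CPM in sham and 0 to 5.16 in MOC1, with a log2 fold change of -2.76 (SE 0.80, edgeR adjusted p = 0.0449), and -3.02 (SE 0.82, edgeR adjusted p = 0.0207) with pan-neuronal scaling. On that scale Kcnh8 (-0.91, edgeR adjusted p = 0.0199), Kcnn4 (-1.245, 0.0226) and Kcnj16 (-1.18, 0.0115) were also called lower, where 11.5% of all genes were. On the TMM scale their log2 fold changes were -0.66, -0.97 and -0.93, and none was called. With pan-neuronal scaling 5 of the 49 separated with MOC1 lower (9.86% of all genes) and 0 with MOC1 higher (0.101%).

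The promoter of Kcnh7, the member with the smallest p, is shown for its sequence context. It is the 250 bases before the annotated start, at chr2:63184288-63184537 of GRCm38.p6 on the minus strand, from RefSeq, and it overlaps no annotated exon. Capitals mark CCGCCC, the reverse complement of the GC box GGGCGG that Sp1-type factors bind.
Kcnh7: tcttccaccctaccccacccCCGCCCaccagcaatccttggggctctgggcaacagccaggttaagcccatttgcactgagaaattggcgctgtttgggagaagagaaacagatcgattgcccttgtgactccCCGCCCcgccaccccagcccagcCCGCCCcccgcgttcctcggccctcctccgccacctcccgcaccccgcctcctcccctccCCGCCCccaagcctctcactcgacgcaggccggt
This window held 4 GC boxes in 67.6% G and C, and neither TATAAA nor the cyclic AMP response element TGACGTCA, searched on both strands. The windows of Kcnab2, which was also called, held none of these motifs, at 56.4% and 54% G and C. RefSeq promoters were matched for 29 of the 37 members, 43 windows in all. GGGCGG was found in 44.2% of these and in 32.7% of all windows, TATAAA in 2.33% and 12.4%, and TGACGTCA in 0% and 1.55%. The median content of G and C was 60.4% in the windows of members and 52.4% in all windows, and the motif shares were not adjusted for it. These are matches of letters within 250 bases and nothing more.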

How the data were processed

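DiI-labelled, sorted trigeminal ganglion neurons were sequenced in 11 libraries. The deposited files hold strand-specific read counts per gene, not normalized, per the file headers; Trimmomatic 0.35, STAR 2.7.1a, RSEM and the build GRCm38 (mm10) are listed in the submitters' processing notes. No source used here names the annotation release. Of the gene identifiers, 55141 of 55401 matched GENCODE M21 without their version, which gave exon lengths for all 37 members (6 under another gene version). Rows naming no gene held 18.7% to 21.5% of counts and were left out.

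Tests used edgeR 4.0.16 (R 4.3.3) after filterByExpr on the 4 groups, which kept 16817 genes, and TMM scaling. The main quasi-likelihood fit had tumour status and sex, and a 4-group fit gave values within each sex and the interaction. Adjustment was by Benjamini-Hochberg over all genes, with a threshold of 0.05. SE was obtained by dividing the absolute log2 fold change by the root of F. DESeq2 1.42.0, limma 3.58.1 (voom), other scalings and filters, a satellite glia covariate, a replicate block and libraries left out were alternatives. Scripts were tested on simulated data. Replicate libraries differed beyond sampling noise.

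The members and gene lists were chosen with earlier results of these data known. The rule for named genes took members called in the main or 4-group edgeR fits, the 3 with the next smallest p in each direction, the highest per kb of each subfamily and, of the other potassium channel genes, those called. Other members named to show a subfamily's range, its levels or the unadjusted sex values were picked after their values were seen. Kcnh8, Kcnn4 and Kcnj16 were named for their calls with pan-neuronal scaling, also after their values were seen.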

Additional observations from a re-analysis of the deposited data

Results flagged for a closer look

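Kcnh2 in sham libraries had 1 library far from the others: sham female 3, at 29.2 CPM, lay away from the rest by 0.796 of the range of the 5 libraries, beyond the limit of 0.71 for groups of that size. This check flags about 1 in 20 groups by chance, and 36 groups, each a gene in sham or in MOC1, were checked. The cause was not tested.

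Kcnd1 differed in its tumour effect between the sexes before adjustment. The interaction, male minus female, was -0.49 on the log2 scale (SE 0.14, unadjusted p = 0.00321 and adjusted p = 1 by edgeR). The log2 fold change was 0.25 (SE 0.10) in females and -0.24 (SE 0.11) in males, and on this TMM scale all libraries of each sex lay in that order. The number of all genes with such an order was not counted. With pan-neuronal scaling the female groups overlapped, at 187 to 242 in sham and 192 to 211 in MOC1, and the opposite order was not seen. It was 1 of 37 members at an unadjusted p under 0.05, beside 4.21% of all genes, and failed the correction.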

How the results depend on the processing

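Kcnh7 and Kcnab2 were called higher in all 11 fits that left out 1 library, with log2 fold changes of 0.43 to 0.50 and of 0.31 to 0.36. The choice that mattered most was the scale. Members called higher numbered 3 on the TMM scale, 0 with pan-neuronal scaling, 34 with satellite glia scaling (which moved the median of all genes to 1.11) and 0 with the satellite glia share as a covariate, under which 0 of all genes were called by edgeR and 1310 had an unadjusted p under 0.05. The satellite glia sums separated the groups without overlap, so the covariate fit could hardly tell tumour status from glial share. Its log2 fold changes were 0.33 (SE 0.17) for Kcnab2, 0.26 (SE 0.22) for Kcnh7 and 0.48 (SE 0.34) for Kcnma1. The SE of these 3 in the main fit were 0.06, 0.08 and 0.11. Members called lower numbered 0, and 1 with pan-neuronal scaling. Over all genes, TMM gave 394 higher and 719 lower, pan-neuronal scaling 27 and 1937, satellite glia scaling 10177 and 46, and DESeq2 608 and 884. Without MOC1 female 2 or sham male 3 the higher count fell to 250 and 258.

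Within females the members called were 1 to 2 as each library was left out. Within males they were 0 to 1, 2 with DESeq2 and 2 with no filter on low counts. Shares over all genes within a sex are not given for any of these fits. Single genes reversed as follows. With pan-neuronal scaling Kcnb2 was -0.0655. With the satellite glia covariate Kcnb2 was -0.13 (SE 0.24), Kcnc1 -0.63 (SE 0.41) and Kcnh2 0.37 (SE 0.43). With satellite glia scaling Kcnab1 was 1.04, Kcnh2 0.97 and Kcnn2 0.91. Kcnb2 was called with voom (limma adjusted p = 0.0472), which gave 4 members higher, beside 536 of 16817 genes. Without MOC1 female 2, MOC1 female 3, MOC1 male 2 and sham female 1 together, the log2 fold change of Kcnb2 was 0.28. The causes were not tested. Per kb of the longest transcript in place of all exons, sham levels of Kcnab2, Kcnip4 and Kcnt1 were 176, 117 and 35.6.

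With the replicate number as a block, 3 members were higher and 0 lower, and 324 genes were higher and 712 lower. Same-numbered libraries showed correlations of -0.036 to 0.044 in their deviations from the group means. With only 2 or 3 libraries in a group, these values cannot decide whether the numbers mark pairs. Kcnd2, Kcnn3 and Kcnk4 had low counts, and all 3 were at 0 in MOC1 female 3, the library with the fewest genes detected (14180), although MOC1 female 1 had the lowest total.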
